A study of Mus musculus with 9 samples.

Results

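The genes described here are 36 heat shock proteins and cochaperones, chosen by symbol from a list set with earlier results of these data known. All 36 were among the 13192 genes of the deposited count table. They fall into 13 cytosolic genes known to be induced by the transcription factor HSF1, 7 small heat shock protein genes and 4 genes of mitochondrial chaperones. The rest are 11 further cytosolic chaperone and cochaperone genes, called constitutive below, and Hsf1 itself. Of those called constitutive, Hspa2 is testis-enriched and Hspa8 is also known to be heat-inducible. The label "cytosolic" holds for most of the set but not for the products of Hspa9, Hspd1, Hspe1 and Dnaja3, which work inside mitochondria. The tissue was the apex of the heart of C57BL/6J wild-type males. At 10 weeks of age they received 1e+11 particles of an adeno-associated virus (AAV) by injection in the right gastrocnemius muscle, and hearts were taken 12 weeks later. AAV-Osm (5 libraries) was built to deliver the gene of oncostatin M, a cytokine of the interleukin-6 family. AAV-Null (4 libraries, with 1 more sample of the 5 submitted not analysed here) was the control vector at the same dose, so both groups carried a virus. The sources used here do not give the serotype of the virus or the promoter that drives the transgene. The heart was not the injected tissue, and the Osm transcript was not analysed here, so these counts cannot show that the transgene was active. The series asks what exogenous oncostatin M does to heart function, muscle mass and fibrous tissue, and the comparison here is of the heart's protein-folding genes between the vectors.

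Heat shock proteins bind unfolded or misfolded proteins and help them to fold, or pass them on to be degraded. HSP70 proteins work in an ATP-driven cycle in which J-domain proteins (Dnaj) deliver clients and start ATP hydrolysis, while HSP110 and other factors exchange the nucleotide, and HSP90 takes over partly folded clients with the help of a set of cochaperones. When unfolded proteins accumulate, HSF1 is released from its chaperones, forms trimers and binds heat shock elements, which are alternating GAA and TTC blocks in the promoters of its targets. Heart muscle also carries large amounts of small heat shock proteins, which do not use ATP and hold on to desmin, titin and other filament proteins, and mutations in CRYAB and BAG3 cause muscle and heart disease in humans.

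The promoter stretches below are shown because they hold either a full match to the heat shock element (Hsph1, Chordc1, Hspe1, Dnajb6) or the closest match in genes with large fitted differences (Hspa1a, Hspa1b, Dnaja1). Promoter sequences (250 bases before to 50 after each start, RefSeq, GRCm38.p6) were matched for 28 of the 36 genes. The 3-block element was searched as GAANNTTCNNGAA and as its reverse complement TTCNNGAANNTTC, which covers both strands, and matches that overlapped each other were kept. All 9 fixed letters were matched in at least 1 promoter of 5 of the 28 genes (17.9%), against 0.629% of the 10011 genes of the count table with a promoter. With 1 fixed letter allowed to differ these shares were 57.1% (16 of 28) and 6.47%. By class, 8 of 12 HSF1-inducible, 3 of 5 small heat shock protein, 2 of 3 mitochondrial and 3 of 8 constitutive genes had such a match. Those of Hspb1, Hspb3, Hspb6, Dnajb4, Fkbp4, Ahsa1, Cdc37 and Ptges3 also differed by 1 letter and are not printed, and the window of Stip1 held none. No match was found for Hsp90aa1, Dnajb1, Bag3 or Hspa4l either, although 12 of the 13 HSF1-inducible genes had a promoter sequence to search. A match of letters is not a site shown to be bound, and a gene without one may have its element elsewhere. Capitals mark the matched bases, with 1 letter allowed to differ in the first 3 and none in the others, and each stretch is written 5′ to 3′ on the strand of the gene.
Hspa1a (chr17:34972227-34972286, minus strand): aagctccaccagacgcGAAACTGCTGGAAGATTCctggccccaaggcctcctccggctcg
Hspa1b (chr17:34959309-34959368, minus strand): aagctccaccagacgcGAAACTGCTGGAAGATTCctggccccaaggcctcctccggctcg
Dnaja1 (chr4:40722318-40722377, plus strand): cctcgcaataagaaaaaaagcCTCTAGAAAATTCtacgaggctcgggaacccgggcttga
Hsph1 (chr5:149636280-149636309, minus strand): tgctgcagaTTCTGGAAAGTTCtcctcagt
Chordc1 (chr9:18292259-18292288, plus strand): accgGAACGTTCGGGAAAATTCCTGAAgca
Hspe1 (chr1:55088053-55088082, plus strand): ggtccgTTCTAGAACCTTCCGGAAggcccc
Dnajb6 (chr5:29735844-29735873, plus strand): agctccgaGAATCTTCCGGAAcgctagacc
The Hspa1a and Hspa1b stretches are identical over their 60 bases, and the 250 bases before the 2 starts are identical at 247. In Hsph1 the exact match lies 15 bases after the start of 1 annotated transcript, and in Chordc1 a run of overlapping matches begins 4 bases before the start. The Hspe1 match lies between divergent genes and was found again, on the other strand, 144 bases before 1 annotated start of Hspd1.

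Total counts per library ran from 11841106 to 24551980 in AAV-Osm and from 18594875 to 30625134 in AAV-Null hearts. The lowest count of any of the 36 genes in any library was 14. Since the labels do not state that each library is another mouse, the p-values speak of the spread between libraries, which may be partly technical. By a chi-square statistic per degree of freedom over genes, where 1 is expected from counting noise alone, AAV-Null 1 and AAV-Null 2 lay closest (6.52), followed by AAV-Osm 2 and AAV-Osm 3 (9.68). No pair agreed within sampling noise, and each library was counted. All 10 cardiomyocyte markers were present, with Myl2 at 21418 ± 3209 CPM in AAV-Osm and 21486 ± 4597 CPM in AAV-Null hearts (CPM are counts scaled to a common library size with TMM factors; SD, n = 5 and 4). Summed cardiomyocyte markers ran from 87073 to 113560.0 CPM in AAV-Osm and from 84291 to 110270.0 CPM in AAV-Null hearts. Of the 10 cardiomyocyte markers, 8 had log2 fold changes (AAV-Osm over AAV-Null) above 0 and 2, Myl2 among them, below 0. Their median was 0.13, with 0 past the threshold and 1 at an unadjusted edgeR p under 0.05. Endothelial markers (8 genes) ran from 605 to 677 CPM in AAV-Osm and from 640 to 721 CPM in AAV-Null hearts, fibroblast markers (8) from 1724 to 2717 CPM in AAV-Osm and from 2160.2 to 3289 CPM in AAV-Null hearts, and macrophage markers (8) from 421 to 586 CPM in AAV-Osm and from 390.2 to 869 CPM in AAV-Null hearts. Mesothelial markers (4) summed to 9.07 to 39.2 CPM in AAV-Osm and 38.3 to 120.6 CPM in AAV-Null hearts, and liver-type markers (8) to 55.4 to 119 CPM in AAV-Osm and 48.7 to 244 CPM in AAV-Null hearts. All 4 mesothelial, all 8 liver-type and all 8 fibroblast markers had log2 fold changes below 0, with 0 past the threshold. At an unadjusted edgeR p under 0.05, 3 mesothelial, 2 liver-type and 0 fibroblast markers were found, against 5.97% of all genes. Below 0 were also 6 of 8 macrophage, 6 of 7 smooth muscle and pericyte and 5 of 8 endothelial markers. The part of these cell types and of cardiomyocytes in the values below was not tested. In bulk tissue, fewer cells of a type and less RNA per cell cannot be told apart, which applies to every level below.

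Small heat shock proteins and constitutive chaperones stood at the top of the set when levels were compared per transcript length (RPKM, which is the TMM-scaled CPM divided by the exon length in kilobases). Cryab, which encodes αB-crystallin, was highest, with 2240.4 ± 357 RPKM in AAV-Osm and 2330.0 ± 103 RPKM in AAV-Null hearts. It was followed by Hspb7, a small heat shock protein of heart and skeletal muscle that binds filamin C, at 1536 ± 307 RPKM in AAV-Osm and 1456 ± 301 RPKM in AAV-Null hearts. Hsp90ab1, the constitutive cytosolic HSP90, had 849.8 ± 176 RPKM in AAV-Osm and 1062 ± 76.9 RPKM in AAV-Null hearts. Hspa8, the constitutive HSP70, had 695 ± 47.4 RPKM in AAV-Osm and 798 ± 83.7 RPKM in AAV-Null hearts. Hspb6, the small heat shock protein HSP20, had 715 ± 170.2 RPKM in AAV-Osm and 741 ± 159.8 RPKM in AAV-Null hearts. Hspa8 and Hspb6 did not differ beyond their spread, and Hsp90ab1 was above both beyond 1 SD in AAV-Null hearts only. At the bottom were the stress-induced HSP70 genes Hspa1a (2.57 ± 3.04 RPKM in AAV-Osm and 5.36 ± 3.13 RPKM in AAV-Null hearts) and Hspa1b (1.16 ± 1.08 RPKM in AAV-Osm and 3.36 ± 2.82 RPKM in AAV-Null hearts) and the testis-enriched Hspa2 (1.31 ± 0.446 RPKM in AAV-Osm and 0.645 ± 0.174 RPKM in AAV-Null hearts). Summed over all 36 genes, transcript levels (count over exon length) made up 1.499% ± 0.0805 of the total over all 13192 genes in AAV-Osm hearts and 1.59% ± 0.179 in AAV-Null hearts (SD, n = 5 and 4). The small heat shock proteins alone made up 0.923% ± 0.0684 of it in AAV-Osm and 0.935% ± 0.106 in AAV-Null hearts.

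**Figure D1:**
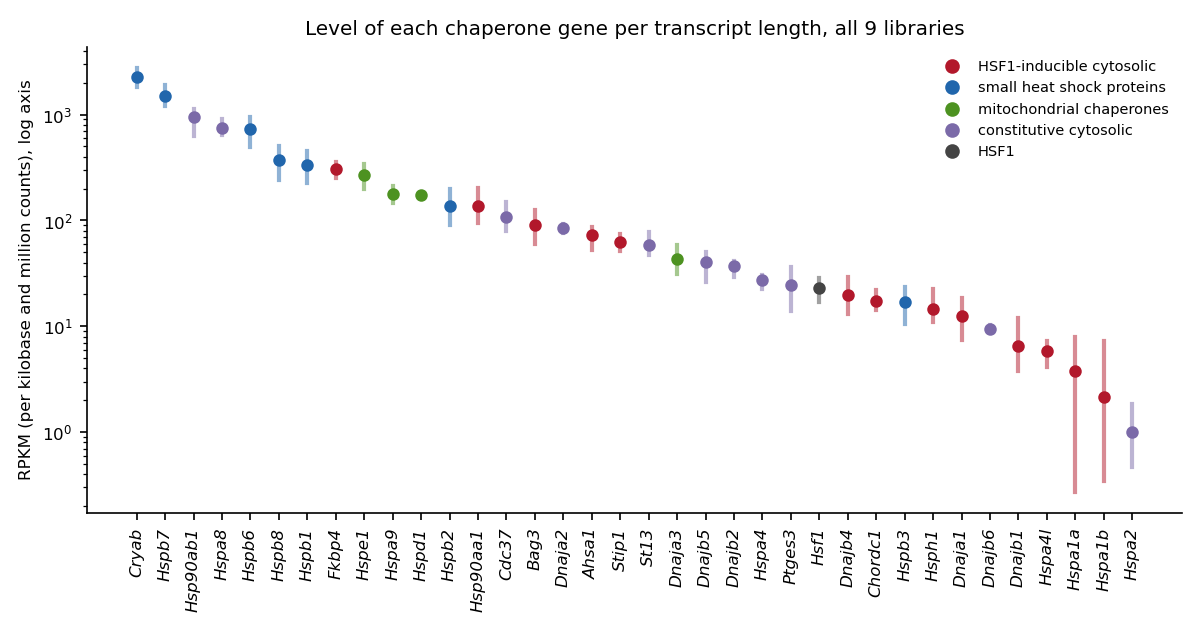
Level of each of the 36 genes in RPKM on a log axis, ordered from high to low. Points are means and bars the lowest to highest value over all 9 libraries, with colours for the classes: Cryab is highest and Hspa2 lowest, and the bars of Hspa1a and Hspa1b are by far the longest.

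No chaperone gene passed the threshold between AAV-Osm and AAV-Null hearts. In edgeR's quasi-likelihood test, with Benjamini-Hochberg adjustment over all 13192 genes, 0 of the 36 had an adjusted p under 0.05, against 0.121% of all genes (16 genes, 0.0834% higher and 0.0379% lower). At an unadjusted p under 0.05, 7 of the 36 were found, 6 lower and 1 higher in AAV-Osm hearts, where 5.97% of all genes were found, 3.09% lower and 2.89% higher. DESeq2 called 0 of the 36 (0.402% of all genes). Limma-voom with quality weights called 3, all lower: Hsp90aa1, Dnaja1 and Hspb1, where 1.33% of all genes were called, 0.705% lower. Of the 36 fitted log2 fold changes (AAV-Osm over AAV-Null), 26 were below 0, against 48.1% of all genes, and their median was -0.14 against 0.01 over all genes. These values were not spread evenly over the classes. The HSF1-inducible genes had a median of -0.30 with 11 of 13 below 0. Hspa8, Hspb1, Cryab, Hspd1 and Hspe1 are also known to be heat-inducible but were counted in the other classes. With them added the median was -0.25 with 16 of 18 below 0. The constitutive genes had one of -0.08 with 7 of 11 below 0, the small heat shock proteins one of -0.06 with 5 of 7 below 0, and the mitochondrial chaperones one of 0.01 with 2 of 4 below 0. The members of a class share regulators and are not independent, and the classes were chosen with earlier results of these data known. These medians are therefore descriptions and were not tested against each other.

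**Figure D2:**
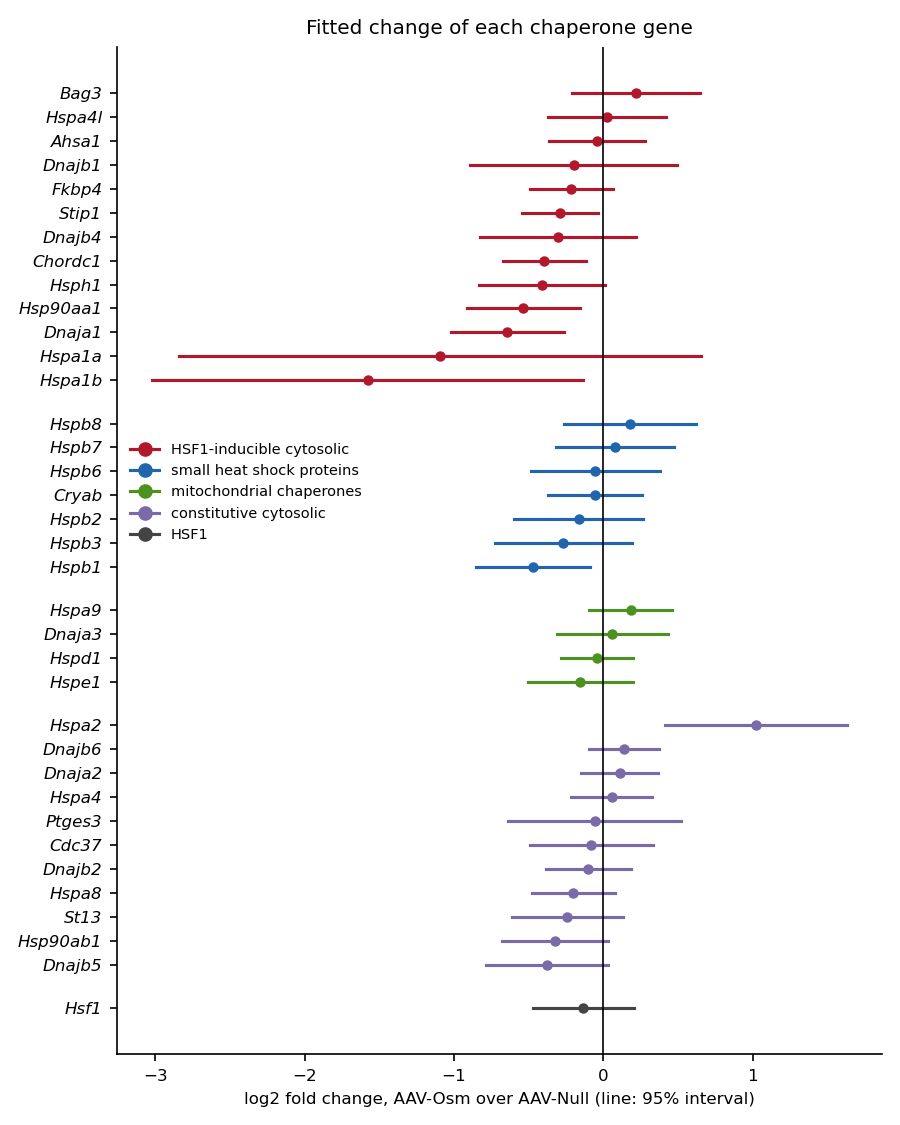
Fitted log2 fold change of each gene, AAV-Osm over AAV-Null, with lines for the 95% interval from edgeR and colours for the classes. The 13 HSF1-inducible genes lie mostly left of 0, from -1.58 for Hspa1b to 0.22 for Bag3, while the 4 mitochondrial chaperones lie between -0.15 and 0.18.

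Among the HSF1-inducible genes, the largest fitted differences were at the stress HSP70 pair, and these were also the least certain. Hspa1a (chromosome 17, 34969359 to 34972156, minus strand, mm10) had 1.59, 0.763, 21.4, 8.53 and 3.61 CPM in AAV-Osm 1 to 5, against 20.7, 13.9, 22.3 and 3.03 CPM in AAV-Null 1 to 4. Hspa1b (chromosome 17, 34956429 to 34959238, minus strand) had 1.16, 0.981, 8.27, 3.83 and 1.99 CPM in AAV-Osm 1 to 5, against 20.3, 7.12, 9.11 and 1.32 CPM in AAV-Null 1 to 4. Both genes were high in AAV-Null 1, 2 and 3 and in AAV-Osm 3 and low in AAV-Osm 1, 2 and 5 and in AAV-Null 4, so the groups overlapped widely. The log2 fold change was -1.09 for Hspa1a (SE 0.80, 95% interval -2.84 to 0.65, edgeR adjusted p = 0.934) and -1.58 for Hspa1b (SE 0.67, -3.02 to -0.13, edgeR adjusted p = 0.796). The highest library exceeded the lowest by 29.2 times for Hspa1a and 20.6 times for Hspa1b, against 1.10 times for Hspd1. The paralogs are nearly identical and stand 10120 bases apart, so how reads were split between them is uncertain. Hspa1a exons also share 564 bases with a GENCODE gene on the opposite strand. Leaving out each library in turn moved the Hspa1a value between -2.13 and -0.80 and that of Hspa1b between -2.31 and -0.90, with the lowest value of each reached without AAV-Osm 3.

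The inducible HSP90 and the HSP110 genes did not pass, and their fitted differences were smaller than those of the HSP70 pair. Hsp90aa1 (chromosome 12, 110691036 to 110696395, minus strand), the stress-induced cytosolic HSP90, had 335, 268, 316, 421 and 291 CPM in AAV-Osm 1 to 5, against 573, 534, 436 and 347 CPM in AAV-Null 1 to 4. Only AAV-Osm 4 stood above the lowest AAV-Null library, AAV-Null 4. Its log2 fold change was -0.54 (SE 0.18, 95% interval -0.92 to -0.16, edgeR adjusted p = 0.582), and limma-voom with quality weights gave -0.76 (adjusted p = 0.0204). Hsph1 (chromosome 5, 149616845 to 149636315, minus strand), the HSP110 that exchanges the nucleotide of HSP70, had 56.6, 43.5, 43.1, 38.2 and 40.03 CPM in AAV-Osm 1 to 5, against 79.1, 66.3, 51.1 and 38.8 CPM in AAV-Null 1 to 4 (log2 fold change -0.41, SE 0.19, 95% interval -0.83 to 0.01, and -0.23 without AAV-Null 1). AAV-Null 1 and 2 were above all AAV-Osm libraries, and AAV-Null 4 was within their range. Hspa4l, another member of the HSP110 family, had 16.8 to 25.8 CPM in AAV-Osm and 14.8 to 25.7 CPM in AAV-Null hearts and a log2 fold change of 0.03 (SE 0.18), whose sign changed with the processing.

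Among the inducible J-domain partners of HSP70, Dnaja1 had the largest fitted difference, and differences between these genes were not tested. Dnaja1 (chromosome 4, 40722468 to 40737151, plus strand), a main cytosolic J-domain protein, had 58.8, 42.8, 54.8, 59.5 and 73.8 CPM in AAV-Osm 1 to 5, against 107, 83.4, 103 and 67.5 CPM in AAV-Null 1 to 4. The groups overlapped by 1 library on each side, AAV-Osm 5 above AAV-Null 4. The log2 fold change was -0.64 (SE 0.18, 95% interval -1.02 to -0.26, edgeR adjusted p = 0.475), with -0.81 in limma-voom with quality weights (adjusted p = 0.0213). Its exons in the count table share 1503 of 5790 bases (26.0%) with Smu1 on the opposite strand. Since the strand setting of the counting is not given, reads of the 2 genes may not be told apart there. Smu1 had a log2 fold change of 0.28 (SE 0.18). Dnajb1, the heat-induced HSP40, had 13.1, 12.1, 32.9, 19.2 and 21.0 CPM in AAV-Osm 1 to 5, against 17.5, 14.7, 38.7 and 18.8 CPM in AAV-Null 1 to 4. AAV-Osm 3 and AAV-Null 3 were above the rest (log2 fold change -0.20, SE 0.32, which became 0.21 without AAV-Null 3). Dnajb4 had 36.4 to 71.9 CPM in AAV-Osm and 37.2 to 81.3 CPM in AAV-Null hearts (log2 fold change -0.30, SE 0.24). Without AAV-Null 2 this value was -0.14 and without AAV-Null 4 it was -0.48, while limma-voom with quality weights gave -0.73 (adjusted p = 0.0591).

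Chordc1 and Stip1 were the genes of the set in which every AAV-Osm library lay below every AAV-Null library. Groups did not overlap for 3 of the 36 genes, 2 lower and 1 higher in AAV-Osm hearts, against 2.28% of all genes, 1.23% lower and 1.05% higher. Chordc1 (chromosome 9, 18292267 to 18314000, plus strand), an HSP90 cochaperone known as CHP-1 or morgana, had 31.5, 37.2, 35.4, 31.3 and 32.1 CPM in AAV-Osm 1 to 5, against 48.5, 41.3, 37.7 and 48.8 CPM in AAV-Null 1 to 4. The closest libraries were AAV-Osm 2 and AAV-Null 3, and the log2 fold change was -0.39 (SE 0.13, 95% interval -0.67 to -0.12, edgeR adjusted p = 0.579). Stip1 (chromosome 19, 7020696 to 7040026, minus strand), the adaptor HOP that hands clients from HSP70 to HSP90, had 112, 122, 139, 114 and 127 CPM in AAV-Osm 1 to 5, against 148, 142, 163 and 146 CPM in AAV-Null 1 to 4 (log2 fold change -0.29, SE 0.12, -0.55 to -0.03, edgeR adjusted p = 0.779). With total counts in place of TMM factors Stip1 overlapped, and the 3 genes that did not were Chordc1, Fkbp4 and Hspa8.

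The remaining HSF1-inducible cochaperones differed by less. Fkbp4, the immunophilin FKBP52 of steroid receptor complexes, had 543, 644, 699, 641 and 555 CPM in AAV-Osm 1 to 5, against 695, 698, 688 and 778 CPM in AAV-Null 1 to 4 (log2 fold change -0.21, SE 0.13). Ahsa1, which stimulates the HSP90 ATPase, had a log2 fold change of -0.04 (SE 0.15, 95% interval -0.36 to 0.28). Bag3 (chromosome 7, 128523583 to 128546979, plus strand), the HSP70 cochaperone that links small heat shock proteins to autophagy of damaged sarcomere proteins, had 276, 322, 244, 154 and 246 CPM in AAV-Osm 1 to 5, against 214, 199, 269 and 172 CPM in AAV-Null 1 to 4. It was the only HSF1-inducible gene besides Hspa4l with a log2 fold change above 0, at 0.22 (SE 0.20, -0.21 to 0.65), which became 0.11 without AAV-Osm 2, 0.13 without AAV-Null 4 and 0.35 without AAV-Null 3 or AAV-Osm 4.

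**Figure D3:**
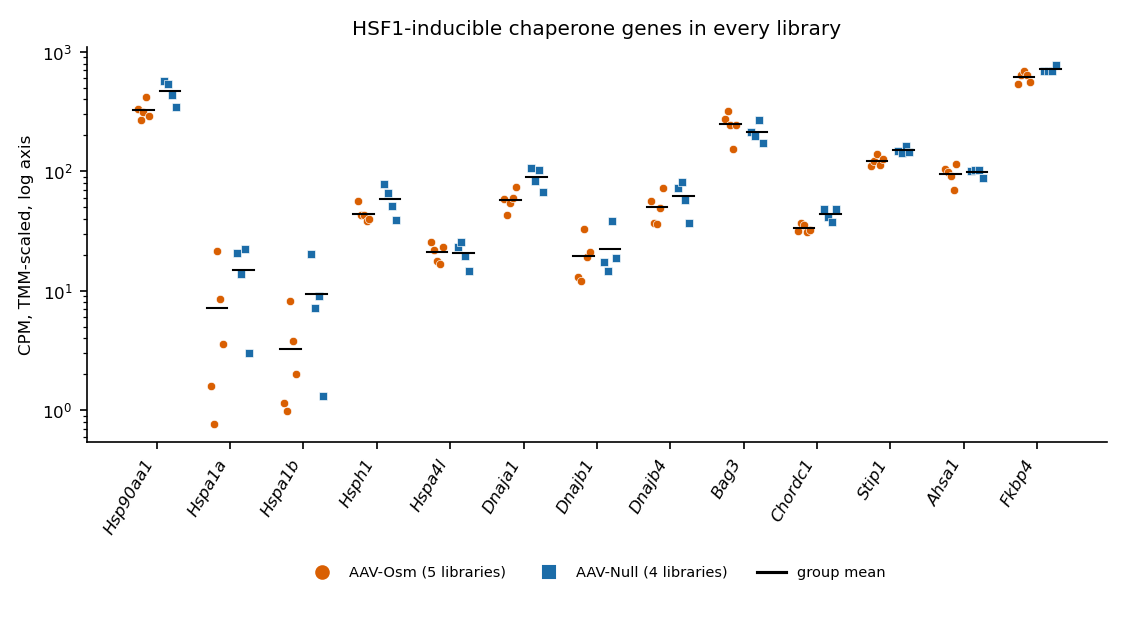
TMM-scaled CPM of the 13 HSF1-inducible genes in each library on a log axis, AAV-Osm (5 circles) left of AAV-Null (4 squares), with a line at each group mean. Every AAV-Osm point of Chordc1 and Stip1 lies below every AAV-Null point, while the highest library exceeds the lowest by 29.2 times for Hspa1a and 20.6 times for Hspa1b.

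Of the small heat shock proteins, Hspb1 had the largest fitted difference, and differences between these genes were not tested. Hspb1 (chromosome 5, 135887919 to 135889563, plus strand), the HSP27 homologue that is also induced by heat, had 203, 221, 308, 334 and 229 CPM in AAV-Osm 1 to 5, against 394, 408, 347 and 283 CPM in AAV-Null 1 to 4. AAV-Osm 3 and 4 were above AAV-Null 4 and below AAV-Null 1 to 3, and the log2 fold change was -0.47 (SE 0.18, 95% interval -0.85 to -0.09, edgeR adjusted p = 0.706; limma-voom with quality weights -0.63, adjusted p = 0.0424). Cryab had 2254, 2682, 2973, 3367 and 2457 CPM in AAV-Osm 1 to 5, against 2878, 3000.5, 2692 and 2856 CPM in AAV-Null 1 to 4, a log2 fold change of -0.06 (SE 0.15, -0.37 to 0.26). The AAV-Null values of Cryab spanned 1.11 times and lay inside the AAV-Osm range.

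Hspb8, which pairs with BAG3 in chaperone-assisted autophagy, had 692, 913, 815, 439.7 and 683 CPM in AAV-Osm 1 to 5, against 527, 517, 777 and 680.2 CPM in AAV-Null 1 to 4 (log2 fold change 0.18, SE 0.20). Like Bag3, it was highest in AAV-Osm 2 and lowest in AAV-Osm 4. Hspb6 (which is phosphorylated in response to cyclic AMP) had 649 to 1253 CPM in AAV-Osm and 769 to 1191 CPM in AAV-Null hearts, and Hspb7 had 3316 to 5271 CPM in AAV-Osm and 3579 to 5278 CPM in AAV-Null hearts, with log2 fold changes of -0.05 (SE 0.20) and 0.08 (SE 0.18). Hspb2 and Hspb3, partners that form a complex in muscle, had log2 fold changes of -0.16 (SE 0.20) and -0.27 (SE 0.21). Hspb2 lies head to head with Cryab on the opposite strand and shares 252 of its 840 exon bases with it in the count table. Without a stated strand setting its counts are uncertain beside a neighbour at 2240.4 RPKM in AAV-Osm hearts.

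By class median, mitochondrial chaperones varied least between libraries of 1 group, with an SD of 0.19 in log2 CPM. The medians were 0.24 for the constitutive genes, 0.30 for the HSF1-inducible genes, 0.34 for the small heat shock proteins and 0.29 over all genes. The low value came from Hspd1 (0.045) and Hspa9 (0.13), while Hspe1 (0.25) and Dnaja3 (0.28) were above the constitutive median. The constitutive genes Dnajb6 (0.039), Dnaja2 (0.11) and Hspa8 (0.12) varied less than Hspa9. Hspd1 (chromosome 1, 55077834 to 55087932, minus strand), the HSP60 chaperonin of the matrix, had 392, 419, 400.4, 394 and 382 CPM in AAV-Osm 1 to 5, against 394, 417, 415 and 409 CPM in AAV-Null 1 to 4. All 9 values lay within 1.10 times of each other, and the log2 fold change was -0.04 (SE 0.11, 95% interval -0.28 to 0.20). Hspe1, its HSP10 lid, is transcribed from the shared promoter region shown above, with 215 bases between the 2 genes in the count table's annotation. It had 218, 241, 207, 175 and 153 CPM in AAV-Osm 1 to 5, against 184, 198, 240.1 and 263 CPM in AAV-Null 1 to 4 (log2 fold change -0.15, SE 0.16, -0.51 to 0.20), a spread of 1.72 times over libraries. Hspa9, the mitochondrial HSP70 (mortalin), had 638, 557, 501, 570.2 and 617 CPM in AAV-Osm 1 to 5, against 503, 536, 541 and 449 CPM in AAV-Null 1 to 4. Its log2 fold change was 0.18 (SE 0.13, -0.09 to 0.46), with AAV-Osm 3 below AAV-Null 1, 2 and 3. Dnaja3, the mitochondrial J-domain protein, had a log2 fold change of 0.06, with an SE of 0.17.

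Of the constitutive cytosolic genes, the abundant HSP90 and HSP70 were slightly lower in AAV-Osm hearts and Hspa2 was higher, none past the threshold. Hsp90ab1 (chromosome 17, 45567778 to 45573261, minus strand) had 1564, 2072, 2445, 2677 and 1893 CPM in AAV-Osm 1 to 5, against 2817, 2691, 2383 and 2757 CPM in AAV-Null 1 to 4. AAV-Osm 3 and 4 were within the AAV-Null range and the other AAV-Osm libraries below it (log2 fold change -0.32, SE 0.16, 95% interval -0.68 to 0.03). Hspa8 had 1433, 1485, 1619, 1418 and 1354 CPM in AAV-Osm 1 to 5, against 1582, 1528, 1925 and 1683 CPM in AAV-Null 1 to 4 (log2 fold change -0.20, SE 0.13). Hspa2 (chromosome 12, 76404176 to 76406936, plus strand), an HSP70 needed for sperm formation, had 4.38, 3.54, 2.56, 2.09 and 4.94 CPM in AAV-Osm 1 to 5, against 1.25, 1.89, 2.30 and 1.47 CPM in AAV-Null 1 to 4. AAV-Osm 4 was within the AAV-Null range, and the log2 fold change of 1.02 (SE 0.28, 0.41 to 1.63, edgeR adjusted p = 0.475) belonged to the gene with the lowest level of the set.

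Dnajb6, a J-domain protein that suppresses aggregation and is mutated in a human limb-girdle muscular dystrophy, differed by little but with hardly any spread. It had 38.3, 38.6, 37.4, 39.0 and 40.3 CPM in AAV-Osm 1 to 5, against 35.7, 35.4, 35.9 and 33.8 CPM in AAV-Null 1 to 4, so that every AAV-Osm library was above every AAV-Null library. The log2 fold change was 0.14 (SE 0.11, 95% interval -0.10 to 0.37, edgeR adjusted p = 0.936), and the groups overlapped when total counts replaced the TMM factors. Raw counts of Dnajb6 ran from 448 in AAV-Osm 4 to 1091 in AAV-Null 3. At such counts, counting noise alone gives a spread of about the size seen, so the small spread is not shown to belong to the gene. Dnajb5, a J-domain protein tied to the redox control of cardiac hypertrophy, had 60.1, 60.9, 88.6, 92.9 and 108 CPM in AAV-Osm 1 to 5, against 117, 115, 113 and 81.4 CPM in AAV-Null 1 to 4 (log2 fold change -0.38, SE 0.19). AAV-Osm 1 and 2 were below all AAV-Null libraries and the other AAV-Osm libraries were within their range.

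St13 (HIP, which stabilises the ADP state of HSP70) had a log2 fold change of -0.24 (SE 0.17). Ptges3, the HSP90 cochaperone p23, had 27.0 to 71.5 CPM in AAV-Osm and 32.8 to 60.9 CPM in AAV-Null hearts (-0.06, SE 0.27). Cdc37, which brings protein kinases to HSP90, had 193 to 322 CPM in AAV-Osm and 223 to 371 CPM in AAV-Null hearts (-0.08, SE 0.19). Hspa4 (an HSP110), Dnaja2 and Dnajb2 (J-domain proteins) had log2 fold changes of 0.06 (SE 0.13), 0.11 (SE 0.12) and -0.10 (SE 0.13). Hsf1 itself, which is controlled mainly at the protein level, had 34.4, 47.0, 58.0, 46.5 and 36.7 CPM in AAV-Osm 1 to 5, against 46.6, 47.3, 47.8 and 53.3 CPM in AAV-Null 1 to 4 (log2 fold change -0.13, SE 0.16, 95% interval -0.47 to 0.21). AAV-Osm 1, 4 and 5 were below the AAV-Null libraries and AAV-Osm 3 was above them, so its order of libraries was not that of its target genes.

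In the mean over the HSF1-inducible genes, though not in each gene, AAV-Null 4 lay with the AAV-Osm libraries and not with the other AAV-Null libraries. Counting how many of the 13 exceeded their own mean log2 CPM over all libraries gave 5, 3, 6, 3 and 6 in AAV-Osm 1 to 5, against 11, 11, 12 and 3 in AAV-Null 1 to 4. The 3 in AAV-Null 4 were Chordc1 (deviation 0.37), Fkbp4 (0.25) and Stip1 (0.13). For Chordc1 and Fkbp4, AAV-Null 4 was the highest of all libraries. Over all 36 genes the counts were 14, 16, 20, 16 and 16 in AAV-Osm 1 to 5, against 22, 24, 25 and 16 in AAV-Null 1 to 4. The share over all genes of the count table was not computed. The class mean deviation, in log2 CPM, was -0.33, -0.53, 0.16, -0.15 and -0.13 in AAV-Osm 1 to 5, against 0.54, 0.30, 0.43 and -0.29 in AAV-Null 1 to 4. Hspa1a and Hspa1b weigh heavily in this mean. Over the other 11 genes it was -0.07, -0.19, -0.06, -0.22 and -0.0044 in AAV-Osm 1 to 5, against 0.27, 0.17, 0.23 and -0.12 in AAV-Null 1 to 4. AAV-Null 4 was within the AAV-Osm range with and without the pair, while AAV-Osm 3 was above 0 only with it. AAV-Null 4 also stood apart in cell type markers, with 120.6 CPM of mesothelial markers (38.3 to 47.5 CPM in AAV-Null 1 to 3), 869 CPM of macrophage markers (390.2 to 576 CPM) and 3289 CPM of fibroblast markers (2160.2 to 2459 CPM). It was also the highest AAV-Null library for cardiomyocyte markers (110270.0 CPM, against 84291 to 96030 CPM) and endothelial markers (721 CPM, against 640 to 692 CPM). For smooth muscle and pericyte markers (222 CPM, against 260 to 302 CPM) and skeletal muscle markers (197 CPM, against 245 to 691 CPM) it was the lowest. The part of these cell types in its chaperone values was not tested. For the mitochondrial chaperones the same deviation ran from -0.11 to 0.086 in AAV-Osm and from -0.085 to 0.061 in AAV-Null hearts. Without AAV-Null 4 the groups did not overlap for 7 of the 36 genes, where 3.83% of all genes did not: Hsp90aa1, Dnaja1, Chordc1, Stip1, Hspb1 and Dnajb5 lower and Dnajb6 higher in AAV-Osm hearts. The count was also 7 without AAV-Osm 3 (3.62% of all genes). It was 5 without AAV-Osm 4 (5.58%) or AAV-Null 3 (4.34%), 4 without AAV-Osm 5 (3.67%), and 3 without AAV-Osm 1 (3.26%), AAV-Osm 2 (2.77%), AAV-Null 1 (3.54%) or AAV-Null 2 (3.19%). Without both AAV-Null 4 and AAV-Osm 5 it was 8 (7.74%), 5 of them HSF1-inducible genes lower in AAV-Osm hearts, and it was 12 when AAV-Null 3 and 4 were both dropped (16.3%). Whichever single library was left out, edgeR called 0 of the 36.

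**Figure D4:**
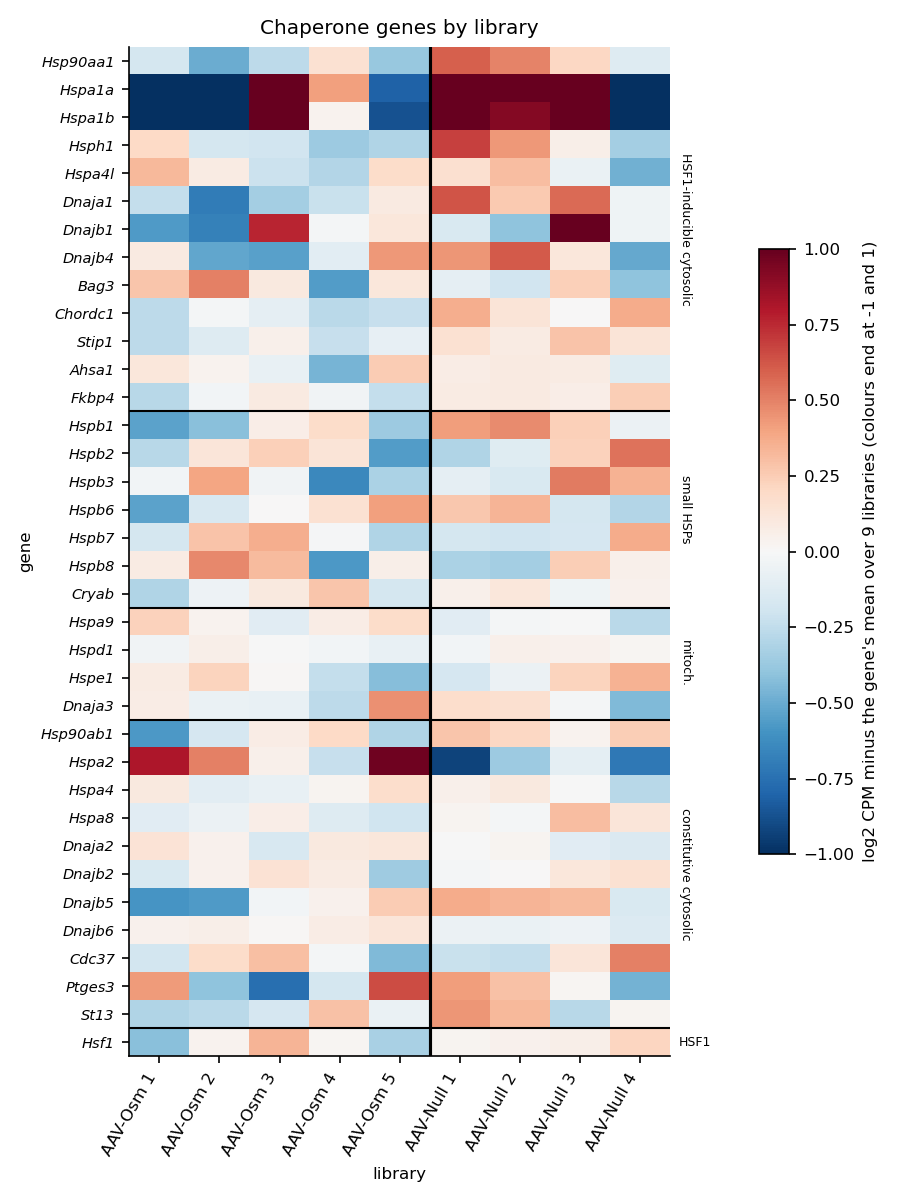
Deviation of each gene's log2 CPM from its mean over the 9 libraries (colour, from -1 to 1), with genes in rows by class and libraries in columns, AAV-Osm left of AAV-Null. In the HSF1-inducible rows AAV-Null 1, 2 and 3 are mostly above the mean, with 11, 11 and 12 of 13 genes, and AAV-Null 4 is not, with 3 of 13.

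Other parts of the folding machinery, taken as lists, held no gene past the threshold and had medians near 0. Of 14 genes of the chaperonin TRiC and prefoldin, 0 passed, 7 had a log2 fold change below 0, and the median was -0.02. The prefoldin subunit genes Pfdn5 and Pfdn1, the most abundant of them, were at -0.24 (SE 0.17) and -0.11 (SE 0.20). Of 40 further genes, mostly of HSP70, HSP90 and J-domain proteins and their cochaperones, 0 passed and the median was -0.01. This list also holds Hsf2, Hsf4, Hspb11 and Hsbp1. In it, Smyd1, a methyltransferase of the myosin-folding machinery, was at 0.09 (SE 0.15) and Bag1, a nucleotide exchange factor of HSP70, at -0.04 (SE 0.26). Of 16 genes for mitochondrial import, folding and quality control, 0 passed and the median was -0.05, with the protease gene Lonp1 at 0.09 (SE 0.13) and Trap1, the mitochondrial HSP90, at 0.21 (SE 0.15). Of 6 ubiquitin genes and partners in chaperone-assisted autophagy, 0 passed and the median was 0.08, with Vcp at -0.0012 (SE 0.16) and the autophagy receptor gene Sqstm1 at 0.17 (SE 0.15). At an unadjusted p under 0.05 these 4 lists held 0 genes.

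Heat shock genes are known to follow body temperature, the clock and handling stress, so genes of those kinds are given beside them. In the clock list 2 of 14 passed, both higher, against 0.121% of all genes, while 9 of the 14 had a log2 fold change above 0 and 5 below 0. Summed CPM of the list ran from 418 to 553 in AAV-Osm and from 302 to 372 in AAV-Null hearts, and without Dbp from 331 to 436 in AAV-Osm and from 239 to 330.4 in AAV-Null hearts. Dbp averaged 122 ± 26.3 CPM in AAV-Osm and 44.1 ± 15.0 CPM in AAV-Null hearts (SD, n = 5 and 4, edgeR adjusted p = 0.0369), and Ciart 10.4 ± 4.11 CPM in AAV-Osm and 3.10 ± 0.528 CPM in AAV-Null hearts (edgeR adjusted p = 0.0349). Per1, which responds to the clock, glucocorticoids and temperature, had 32.9, 27.4, 26.1, 26.7 and 30.1 CPM in AAV-Osm 1 to 5, against 18.2, 17.3, 19.7 and 19.9 CPM in AAV-Null 1 to 4 (log2 fold change 0.61, edgeR adjusted p = 0.171). Arntl, which encodes the clock activator BMAL1, and the clock repressor gene Nfil3, both named after their values were seen, had every AAV-Osm library below every AAV-Null library, with log2 fold changes of -1.19 (edgeR adjusted p = 0.186) and -0.90 (edgeR adjusted p = 0.199). The cold-inducible RNA-binding protein genes Cirbp and Rbm3 had log2 fold changes of 0.24 (SE 0.14) and 0.54 (SE 0.32) and did not pass. Rbm3 had 17.4, 11.4, 8.59, 11.6 and 29.4 CPM in AAV-Osm 1 to 5, against 11.1, 13.3, 11.7 and 7.24 CPM in AAV-Null 1 to 4, and its log2 fold change without AAV-Osm 5, the highest library, was 0.19. Immediate early genes, which rise within minutes of handling or injury, gave 0 of 14 past the threshold and summed to 388, 318, 725, 584 and 641 CPM in AAV-Osm 1 to 5, against 511, 692, 642 and 392 CPM in AAV-Null 1 to 4. Fos had 8.21, 3.60, 23.6, 7.75 and 14.4 CPM in AAV-Osm 1 to 5, against 6.92, 12.5, 17.2 and 3.23 CPM in AAV-Null 1 to 4, and the log2 fold changes of Egr1, Jun and Btg2 were -0.13 (SE 0.31), -0.13 (SE 0.22) and 0.02 (SE 0.29). The libraries with low Hspa1a and Hspa1b (AAV-Osm 1 and 2 and AAV-Null 4) were also the 3 with the lowest immediate early sums. AAV-Osm 5 was low for the HSP70 pair but not for the immediate early genes, and AAV-Osm 3 was the highest AAV-Osm library in both. The labels give no time of day, body temperature or time from death to freezing, and the part of these in the heat shock values was not tested.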

How the data were processed

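mRNA-enriched RNA from 9 heart apex samples was sequenced as 75 base paired ends, per the labels' protocols. The submitters' processing notes name STAR 2.5.2b, featureCounts, Subread 1.5.1 and mm10. The sources used here do not say which annotation was used, whether counting was stranded, or how multi-mapping reads were handled. The authors deposited 1 table of raw counts per gene with the coordinates and summed exon length of each gene, in which 4141 blank lines were skipped. Osm was not analysed here.

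The test was edgeR's two-sided quasi-likelihood F test (edgeR 4.0.16, R 4.3.3; TMM factors, robust fit, group as the only term) on 13192 genes, of which filterByExpr removed 0, with Benjamini-Hochberg adjustment over all of them and a threshold of 0.05. DESeq2 1.42.0 and limma 3.58.1 were alternatives, and the test was checked on simulated counts. CPM and RPKM use the TMM factors, while transcript shares use counts over exon length alone. Intervals are 95% intervals of the fitted log2 fold change. Deviations are of log2 CPM with a prior count of 2. Exon overlaps were taken from the count table and GENCODE vM21 (GRCm38).

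The 36 genes, their classes and the other lists were chosen with earlier results of these data known. The genes named are all 36, from each other list those past the threshold or else the 2 most abundant (for cell type lists, sums and Myl2 only), and Dbp, Per1, Cirbp, Rbm3, Fos and Egr1. Smu1 was added after its overlap with Dnaja1 was seen. Lists for lymphocytes, smooth muscle, erythroid cells, adipocytes, skeletal muscle and atrium held 0 genes past the threshold. Of their listed genes, 3 of 5, 7 of 7, 1 of 5, 1 of 6, 4 of 8 and 3 of 4 were tested, in that order. The erythroid and adipocyte lists thus rest on 1 gene each.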

Additional observations from a re-analysis of the deposited data

Results flagged for a closer look

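Within each group of libraries, the CPM of every one of the 36 genes was checked for a highest or lowest library standing apart from the rest by Dixon's test at the 95% level. In 72 such groups 5 were found, which is near the rate of about 1 in 20 that chance gives. How often each library stands apart over all genes was not computed, so these flags are not shown to be particular to the 36 genes. In AAV-Osm hearts, Hsph1 was at 56.6 CPM in AAV-Osm 1, against 38.2 to 43.5 CPM in the other AAV-Osm libraries. The other 4 were all AAV-Null 4, against AAV-Null 1 to 3: Ahsa1 at 88.4 CPM against 102 to 103 CPM, Fkbp4 at 778 CPM against 688 to 698 CPM, Hspb7 at 5278 CPM against 3579 to 3645 CPM, and Dnajb5 at 81.4 CPM against 113 to 117 CPM. AAV-Null 1 and 2 were the most similar pair of the series, and the part of this in the flags of AAV-Null 4 was not tested.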

How the results depend on the processing

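Over all genes the count past the threshold was 16 in the edgeR test, 53 with DESeq2, 176 with limma-voom and quality weights, 5 among genes averaging at least 5 CPM (which leaves out Hspa2), and 4 to 11 with each library left out in turn. Among the 36 genes it was 3 with limma-voom and 0 to 0 with each library left out. The count of genes whose groups did not overlap was 3, and became 8 without AAV-Null 4 and AAV-Osm 5 (7.74% of all genes), 12 without AAV-Null 3 and 4 (16.3%) and 3 to 7 with each library left out; the share of all genes grows as libraries are dropped. The non-overlap alternatives, and leaving out Hspa1a and Hspa1b from their class, Dbp from the clock list and each library from Rbm3 and Cirbp, were chosen after seeing the data. The class median of the HSF1-inducible genes ran from -0.40 to -0.29 that of the constitutive genes from -0.15 to -0.024, that of the small heat shock proteins from -0.14 to 0.0087 (above 0 without AAV-Osm 1) and that of the mitochondrial chaperones from -0.050 to 0.045 with each library left out. The median of the small heat shock proteins was also above 0 with limma-voom (0.062) and without AAV-Null 3 and 4 (0.043), and that of the mitochondrial chaperones was below 0 with total counts (-0.024) and without AAV-Null 4 and AAV-Osm 5 (-0.0026).

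Of the 36 genes, 22 kept the sign of their log2 fold change under every alternative run for them, among them 9 of the 11 HSF1-inducible genes below 0. Leaving out 1 library changed the sign or moved the value by over 1.5 times for 24 of the 36 genes. Signs turned as follows, and the cause was not tested. With limma-voom, without AAV-Null 3 and 4, and without AAV-Null 4 and AAV-Osm 5, the log2 fold changes were -0.17, -0.20 and -0.14 for Hspa4l, 0.14, 0.17 and 0.11 for Hspb2, 0.071, 0.060 and 0.021 for Hspe1, -0.14, -0.12 and -0.18 for Dnaja3, -0.073, -0.046 and -0.060 for Hspa4 and 0.23, 0.22 and 0.19 for Cdc37. Hspa4l was also at -0.012 with total counts. Hspb3 was at 0.062 with limma-voom and 0.043 without AAV-Null 3 and 4, Dnajb1 at 0.28 without AAV-Null 3 and 4, and Dnajb2 at 0.0012 without AAV-Null 4 and AAV-Osm 5. With each library left out, values ran from -0.11 to 0.053 for Ahsa1, -0.17 to 0.096 for Cdc37, -0.14 to 0.0087 for Cryab, -0.060 to 0.13 for Dnaja3, -0.47 to 0.21 for Dnajb1, -0.020 to 0.099 for Hspa4, -0.10 to 0.14 for Hspa4l, -0.28 to 0.0053 for Hspb2, -0.17 to 0.060 for Hspb6, -0.013 to 0.23 for Hspb7 and -0.26 to 0.088 for Ptges3. No paired analysis was possible because the labels give no replicate numbers that the groups share. Depth limits Hspa1a, Hspa1b and Hspa2 most, the lowest count of any of the 36 genes being 14.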
